A study of Homo sapiens with 6 samples.

Results

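The RNAs of 44 ATP-dependent chromatin remodelers and their subunits were followed in RNA immunoprecipitation with sequencing (RIP-seq) of IGF2BP3. The members were taken by gene name from the deposited count table, which lists 60655 genes, and all 44 names were found. They comprise 23 subunits of the BAF and PBAF complexes (the mammalian SWI/SNF family), 9 CHD proteins, 7 proteins of the ISWI family and its partners, the catalytic proteins INO80 and SRCAP, and 3 other SNF2-type ATPases. The assay sequences the RNA that an antibody pulls out of lysed cells, here an antibody to IGF2BP3 or, as control, nonspecific IgG. Both groups came from untreated WaGa cells of WT genotype, an established Merkel cell carcinoma (MCC) line that carries Merkel cell polyomavirus. Each IP, with IGF2BP3 antibody or with IgG, gave 3 libraries, numbered as replicates 1 to 3 in each group. The sources used here give no input RNA, so a level in the IgG IP stands for RNA that comes down without the IGF2BP3 antibody and not for the level in the cell. All libraries are from a single cell line.

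Chromatin remodelers use the energy of ATP to slide, evict or exchange nucleosomes. BAF complexes are built around the ATPase SMARCA4 or SMARCA2, with ARID1A or ARID1B as the alternative largest subunits, whereas PBAF carries ARID2, PBRM1 and PHF10. ISWI enzymes space nucleosomes, CHD proteins are ATPases with paired chromodomains, and INO80 and SRCAP act on the histone variant H2A.Z. IGF2BP3 is a cytoplasmic RNA-binding protein, and the IGF2BP family is known to bind RNA that carries N6-methyladenosine, a mark often found on the A of GGAC.

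Library totals ran from 9758759 to 14886414 counts on genes. Replicate 1 stood apart in both groups. The chi-square statistic per degree of freedom was 18.2 to 21.9 where it was set against another library of its group, and 2.20 and 3.25 between replicates 2 and 3. No pair of libraries within a group differed by less than the sampling noise. The MCC markers were present in every library, as shown by *KRT20* at 430 to 633 TPM (transcripts scaled to a fixed total per library) and *ATOH1* at 338 to 544 TPM, whereas *COL3A1*, *KRT14*, *PTPRC*, *CD3E*, *MLANA* and *TYR* had 0 counts in every library. Some RNAs of the same marker lists were present. *DCN*, a proteoglycan on the fibroblast list, was at 29.2 to 54.1 TPM, the keratinocyte marker *KRT10* at 5.44 to 7.99 TPM and *KRT5* at 4 to 11 counts, and the melanocyte marker *PMEL* reached 13 counts. The RNA of *IGF2BP3* itself had a log2 fold change of -0.04 between the IPs (standard error, SE, 0.07).

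Of the 44 RNAs, 42 passed the expression filter of edgeR and were tested among 14507 genes. The RNAs left out were *SMARCA1*, the second ISWI ATPase, with 2, 7 and 3 counts in replicates 1 to 3 with IgG and 1, 1 and 2 counts with IGF2BP3, and *SMARCD3*, a BAF subunit, with 6, 11 and 4 counts with IgG and 24, 9 and 10 counts with IGF2BP3. All IGF2BP3 IP libraries of *SMARCA1* lay below its IgG IP libraries in CPM and those of *SMARCD3* overlapped. DESeq2, which kept both, gave neither an adjusted p. The 44 RNAs together held 0.357%, 0.390% and 0.391% of all counts with IgG and 0.383%, 0.424% and 0.402% with IGF2BP3. These ranges overlapped, and each same-numbered pair was higher with IGF2BP3.

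Before the values, a stretch of coding sequence is shown for 4 members: *ARID1A*, *ARID1B* and *CHD6*, which had the highest fold changes among well-counted remodeler RNAs, and *ARID2*, the PBAF counterpart of the ARID1 subunits. For each, the closest pair of GGAC tetramers that do not overlap within a coding exon was taken, on the transcript strand only. Each window has 30 bases of GRCh38, is written 5′ to 3′ as DNA, and carries its GGAC tetramers in capitals. The windows were *ARID1A* exon 20 of 20 at chr1:26780142-26780171 on the plus strand, *ARID1B* exon 20 of 20 at chr6:157207410-157207439 on the plus strand, *ARID2* exon 1 of 21 at chr12:45729876-45729905 on the plus strand and *CHD6* exon 5 of 37 at chr20:41512932-41512961 on the minus strand.
ARID1A: ctgcctgtcctGGACGGACtcctacactgg
ARID1B: gtatccaGGACaataatgtGGACctgatct
ARID2: agaaagGGACtcgctttcctGGACgagctg
CHD6: aatacaatgaGGACctGGACttcaaagtgg

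In *ARID1A* the tetramers adjoin. The coding sequences held 45 GGAC in *ARID1A*, 37 in *ARID1B*, 24 in *ARID2* and 38 in *CHD6*, or 6.56, 5.20, 4.36 and 4.67 per kb. The coding sequence of *PHF10*, a PBAF subunit that was not higher in the IGF2BP3 IP, held 5 and no window of this kind. It has 1494 bases, whereas those of *ARID1A*, *ARID1B*, *ARID2* and *CHD6* have 5505 to 8145. No further member was searched, so these counts do not set the higher RNAs apart from the rest. The tetramer is common. It occurred in 97.1% of the 11867 coding sequences of tested RNAs, with a median of 4.62 per kb. Among all windows of 30 bases in these sequences, 12.3% held at least 1 GGAC and 0.711% held at least 2. The displayed windows were chosen as the closest pair in a whole coding sequence, so each holds 2 by choice. The 0.711% therefore does not measure how rare they are, and the share of coding sequences with such a pair was not computed. These matches describe letters in the annotated transcript and carry no measurement of methylation or of binding at these positions.

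Between IGF2BP3 IP and IgG IP, 1 of the 42 tested remodeler RNAs was enriched and 0 were depleted, at a change of at least 1.5-fold and a Benjamini-Hochberg adjusted p under 0.05 in the quasi-likelihood test of edgeR. The enriched RNA was *ARID1A*. Over all 14507 tested RNAs, 1.16% were enriched and 0% were lower, so a single call among 42 is not read as a property of the remodelers as a group. At an unadjusted p under 0.05, 9 members were higher and 0 were lower, against 9.72% and 3.1% of all tested RNAs. DESeq2 also called 1 member, against 2.22% of the RNAs to which it gave an adjusted p, and edgeR with the replicate number as an added block term called 1 and 0, against 3.56% enriched and 0.103% lower. Here and below, the block takes same-numbered libraries as pairs, which the sources used here do not state. Its adjusted p-values depend on that pairing. The median log2 fold change was 0.08 over the 42 members and -0.01 over all tested RNAs, with a member median of 0.07, 0.11 and 0.05 in the same-numbered pairs 1 to 3. Above 0 lay 25 of the 42 members, against 48.9% of all tested RNAs. For 30 of the 42, the 95% confidence interval lay within a 1.5-fold change either way, against 53.7% of all tested RNAs, and for 12 it reached further.

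**Figure D1:**
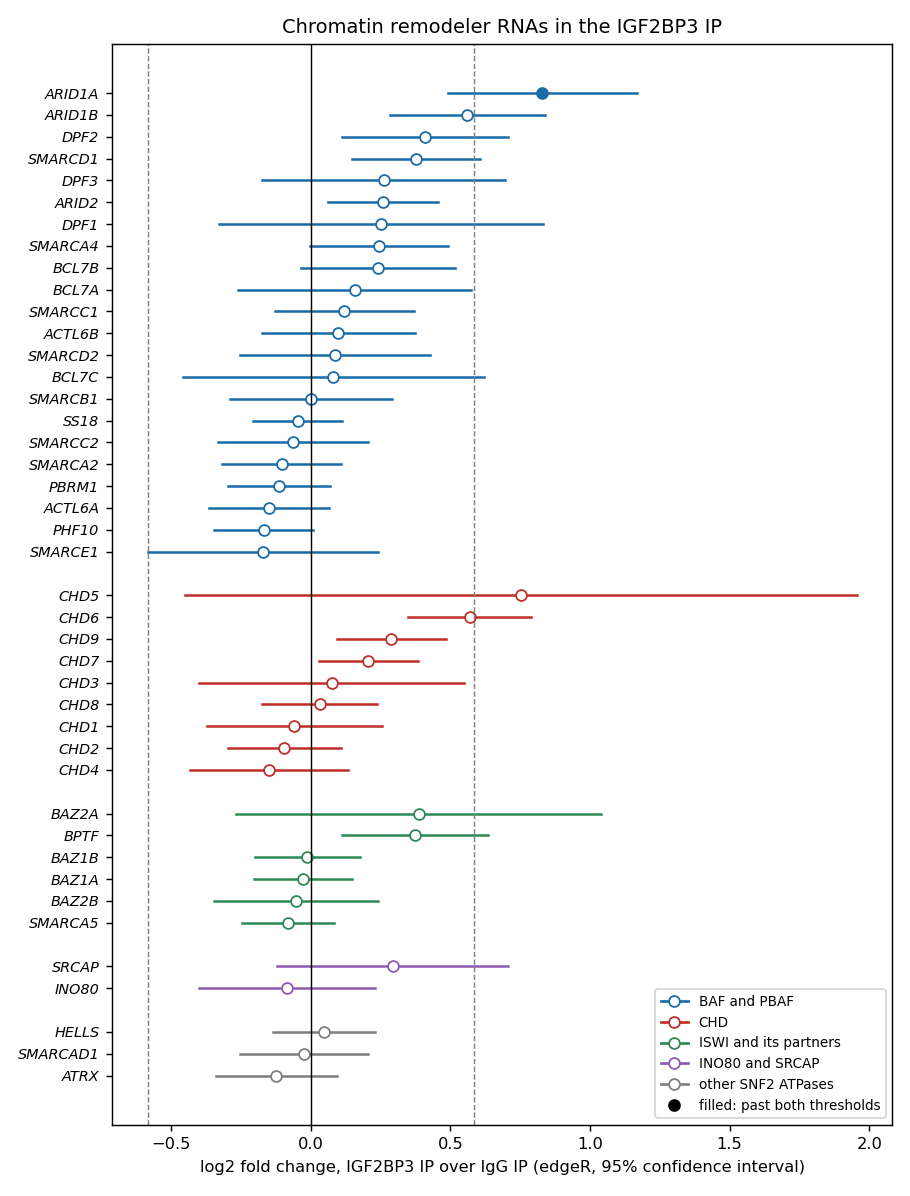
Log2 fold change (x axis) of the 42 tested remodeler RNAs by family, with edgeR 95% confidence intervals as bars and dashed lines at a 1.5-fold change. *ARID1A*, at 0.83, is the only filled point, and *CHD5*, with 3 to 24 counts per library, has the widest bar.

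*ARID1A* (ENSG00000117713.20, chromosome 1 from 26693236 to 26782104 on the plus strand, 20 exons) encodes a DNA-binding subunit of canonical BAF. Its normalized CPM (counts scaled to a fixed library size) of replicates 1 to 3 were 50.9, 57.9 and 60.2 with IgG and 77.7, 119 and 104 with IGF2BP3. The lowest IGF2BP3 IP library lay above the highest IgG IP library, with means of 100.2 ± 20.9 and 56.3 ± 4.81 (SD, n = 3). The fold change was 1.78, or 0.83 on the log2 scale (SE 0.15, adjusted p = 0.037, edgeR). The adjusted p was 1.5e-08 under the replicate block and 0.00012 by DESeq2, whereas with a correction for GC content the log2 fold change was 0.71 and the adjusted p 0.083 (edgeR). The call was kept with GC correction and block together (0.71, adjusted p = 2.8e-07, edgeR) and with a length correction (0.74, adjusted p = 0.011, edgeR). The call was lost when IgG IP replicate 1, 2 or 3 or IGF2BP3 IP replicate 2 or 3 was left out, at log2 fold changes of 0.77, 0.85, 0.88, 0.68 and 0.78, with adjusted p of 0.058, 0.14, 0.13, 0.18 and 0.20 (edgeR). The call was kept without IGF2BP3 IP replicate 1, at 0.98, and with replicates 2 and 3 alone, at 0.92.

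*ARID1B* (ENSG00000049618.24, chromosome 6 from 156776020 to 157210779 on the plus strand, 20 exons) encodes the alternative to ARID1A in BAF. Its CPM were 126, 154 and 158 with IgG and 190, 247 and 210 with IGF2BP3, again with no overlap between the groups. The log2 fold change was 0.56 (SE 0.12, adjusted p = 0.073, edgeR), and the adjusted p was 2.7e-07 with the replicate block and 0.0058 with DESeq2. The change stayed under the 1.5-fold minimum in those fits, and *ARID1B* passed both thresholds without IGF2BP3 IP replicate 1, at 0.64. *ARID2* (ENSG00000189079.17), the PBAF counterpart on chromosome 12 from 45729706 to 45908040, had 99.4, 104 and 101 CPM with IgG and 117, 134 and 113 CPM with IGF2BP3. Its groups did not overlap either, with a log2 fold change of 0.26 (SE 0.09, adjusted p = 0.25, edgeR) and an adjusted p of 0.0059 with the block. The ARID subunits therefore lay in the order *ARID1A*, *ARID1B*, *ARID2* by fitted change, and the confidence intervals of neighbors in that order overlapped (0.49 to 1.17, 0.28 to 0.84 and 0.06 to 0.46).

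*CHD6* (ENSG00000124177.16, chromosome 20 from 41402083 to 41618384 on the minus strand, 37 exons) encodes a CHD ATPase of the subfamily that also holds CHD7, CHD8 and CHD9. Its CPM were 40.1, 35.7 and 33.8 with IgG and 54.3, 54.6 and 53.3 with IGF2BP3. The IGF2BP3 IP libraries were close to each other, at 54.1 ± 0.675 (SD, n = 3), and all lay above the IgG IP libraries, at 36.5 ± 3.24 (SD, n = 3). The log2 fold change of 0.57 (SE 0.10, adjusted p = 0.032, edgeR) lay just under the minimum of 0.58, so *CHD6* was past the threshold on p and not past that on size. With *ARID1A* it made up the 2 members at an adjusted p under 0.05, against 1.4% of all tested RNAs. With DESeq2 3 members were past that threshold, *ARID1B* being the third, against 3.2%. *CHD6* passed both thresholds with library totals as the only scaling (0.61), with the GC correction (0.60), without IgG IP replicate 1 (0.64) and with replicates 2 and 3 alone (0.64). The deposited TPM of *CHD6* showed no such difference, at 13.7, 7.83 and 9.03 with IgG and 9.54, 8.34 and 11.6 with IGF2BP3, where the groups overlapped.

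**Figure D2:**
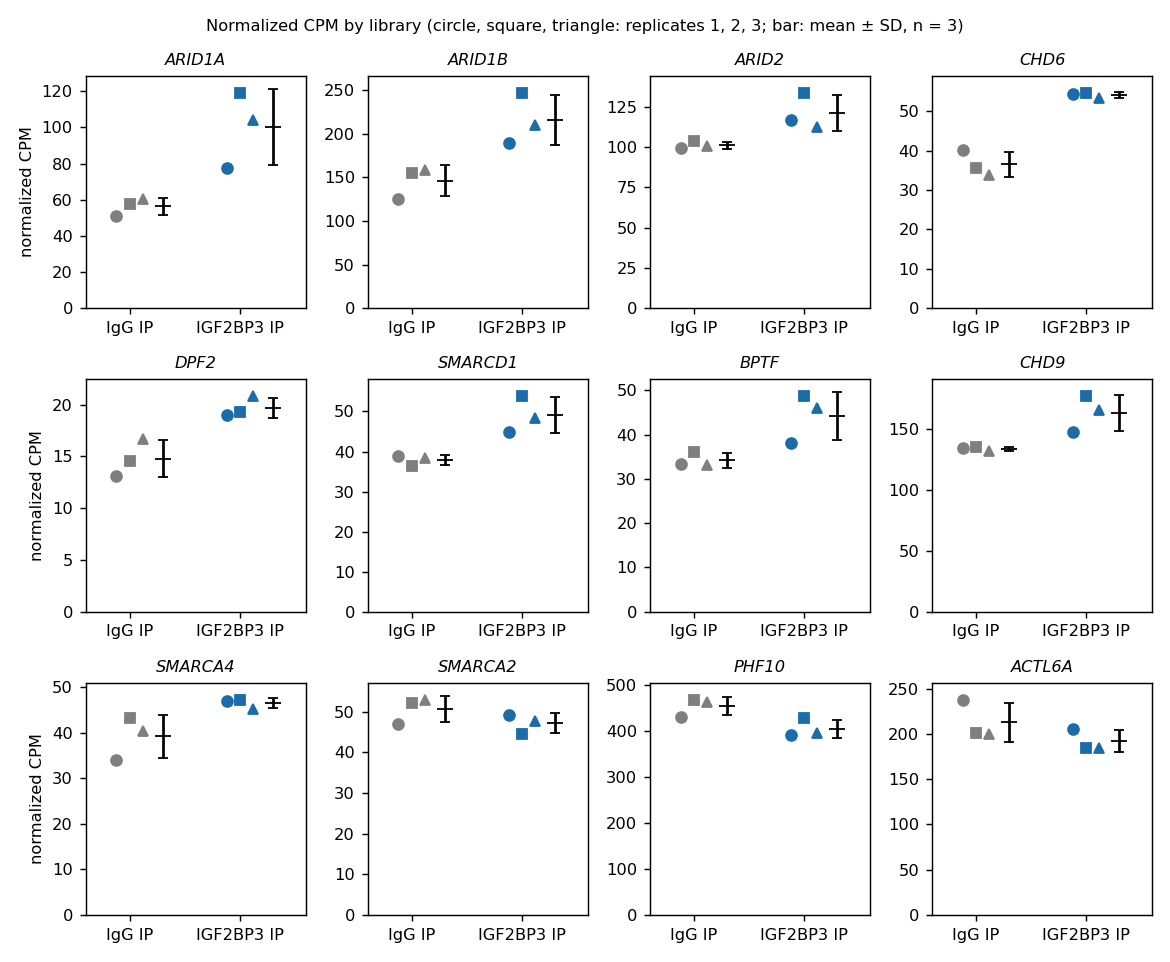
Normalized CPM (y axis, from 0) of 12 remodeler RNAs in each library, with the mean ± SD (n = 3) beside the points. The IGF2BP3 IP libraries of *ARID1A*, *ARID1B*, *ARID2*, *CHD6*, *DPF2*, *SMARCD1*, *BPTF*, *CHD9* and *SMARCA4* lie above all IgG IP libraries, those of *PHF10* lie below, and the groups overlap for *SMARCA2* and *ACTL6A*.

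Among the 23 BAF and PBAF members, 22 were tested, 1 was enriched and 0 were lower, against 1.16% and 0% of all tested RNAs. Of the 22, 15 had a log2 fold change above 0 and 7 below, where 48.9% of all tested RNAs lay above 0. Their median was 0.11, with a range of -0.17 to 0.83. In the BAF core, the ATPase RNAs lay on either side of 0. *SMARCA4*, which encodes BRG1, had 34.0, 43.2 and 40.2 CPM with IgG and 47.0, 47.2 and 45.2 CPM with IGF2BP3. Its log2 fold change was 0.24 (SE 0.11, adjusted p = 0.40, edgeR; 0.046 with the block). *SMARCA2*, which encodes the alternative ATPase BRM, had 47.0, 52.1 and 52.9 CPM with IgG and 49.2, 44.6 and 47.8 CPM with IGF2BP3, with overlap and a log2 fold change of -0.10 (SE 0.09). The scaffold and core subunits had log2 fold changes of 0.12 for *SMARCC1*, -0.06 for *SMARCC2*, 0.00 for *SMARCB1* and -0.17 for *SMARCE1*, none past a threshold. *SMARCE1* had 61.0, 43.2 and 45.5 CPM with IgG and 55.9, 38.9 and 37.9 CPM with IGF2BP3, high in replicate 1 of both groups.

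The accessory subunits were mixed. *SMARCD1*, which links the core to transcription factors, had 38.8, 36.3 and 38.4 CPM with IgG and 44.9, 53.8 and 48.4 CPM with IGF2BP3. Its log2 fold change was 0.38 (SE 0.10, adjusted p = 0.14, edgeR; 0.0022 with the block), and that of its paralog *SMARCD2* was 0.09. *DPF2*, a double PHD finger reader of acetylated histones, had 13.1, 14.5 and 16.7 CPM with IgG and 19.0, 19.3 and 20.8 CPM with IGF2BP3, without overlap. Its log2 fold change was 0.41 (SE 0.13, adjusted p = 0.22, edgeR; 0.010 with the block). The neuronal and muscle paralogs *DPF1* and *DPF3* were at 2.61 to 4.62 and 3.69 to 5.20 CPM, with log2 fold changes of 0.25 and 0.26 and intervals that crossed 0. *BCL7A*, *BCL7B* and *BCL7C* were at 0.16, 0.24 and 0.08, the actin-related *ACTL6B* at 0.10, and *SS18*, the subunit fused in synovial sarcoma, at -0.05.

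The lowest log2 fold changes from counts were those of *SMARCE1*, *PHF10* and *ACTL6A*. On log2(TPM + 0.1) their differences were 0.15, -0.03 and 0.00, where the median of all tested RNAs was 0.13. *PHF10*, the PHD finger subunit of PBAF, had 432, 469 and 465 CPM with IgG and 392, 428 and 395 CPM with IGF2BP3. All IGF2BP3 IP libraries lay below all IgG IP libraries, with a log2 fold change of -0.17 (SE 0.08, adjusted p = 0.42, edgeR; 0.031 with the block). *ACTL6A*, an actin-related subunit shared with other complexes, had 238, 201 and 200.2 CPM with IgG and 206, 185 and 185 CPM with IGF2BP3. Each same-numbered pair was lower in the IGF2BP3 IP, the groups overlapped through IGF2BP3 IP replicate 1, and the log2 fold change was -0.15 (SE 0.09). *PBRM1*, the polybromo subunit of PBAF, was at -0.11. Reads of *PHF10*, *ACTL6A*, *PBRM1* and *SMARCC2* may include reads of *C6orf120*, *MRPL47*, *GNL3* and *MYL6*, which overlap them on the opposite strand, since whether the counting used the strand is not stated.

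All 9 CHD RNAs were tested, and 0 passed both thresholds in either direction, against 1.16% enriched and 0% lower over all tested RNAs. At an unadjusted p under 0.05, 3 were higher and 0 lower, against 9.72% and 3.1% of all tested RNAs. Besides *CHD6*, these were *CHD7* and *CHD9*. *CHD9* had 135, 135 and 132 CPM with IgG and 148, 177 and 166 CPM with IGF2BP3, with a log2 fold change of 0.29 (SE 0.09, adjusted p = 0.19, edgeR; 0.0019 with the block). *CHD7*, the gene mutated in CHARGE syndrome, had 66.2, 69.4 and 69.4 CPM with IgG and 77.4, 80.8 and 78.4 CPM with IGF2BP3. Its groups were tight and separate, with a log2 fold change of 0.21 (SE 0.08, adjusted p = 0.30, edgeR; 0.035 with the block). *CHD8*, the remaining member of the subfamily, did not separate, at 78.0, 68.0 and 77.3 CPM with IgG and 77.0, 79.5 and 71.6 CPM with IGF2BP3 (log2 fold change 0.03, SE 0.09).

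The other CHD RNAs did not separate upward. *CHD1*, which spaces nucleosomes on transcribed genes, had 44.1, 53.3 and 55.8 CPM with IgG and 41.3, 56.9 and 49.0 CPM with IGF2BP3 (log2 fold change -0.06). *CHD2*, which overlaps the long noncoding RNA *CHASERR* on the same strand, had 80.5, 77.5 and 80.5 CPM with IgG and 80.1, 75.5 and 67.7 CPM with IGF2BP3 (log2 fold change -0.10). Both had intervals that included 0. *CHD3*, *CHD4* and *CHD5* encode the alternative ATPases of the NuRD complex, which couples remodeling with histone deacetylation. *CHD3* had 30.9, 47.7 and 48.0 CPM with IgG and 32.6, 50.5 and 50.6 CPM with IGF2BP3 (log2 fold change 0.07), low in replicate 1 of both groups. *CHD4* had 14.6, 14.5 and 14.1 CPM with IgG and 12.7, 12.2 and 14.1 CPM with IGF2BP3 (log2 fold change -0.15, SE 0.13), so that the IGF2BP3 IP libraries lay below the IgG IP libraries, the nearest ones both at 14.1 CPM when rounded. *CHD5*, the neuronal paralog, had only 3, 20 and 9 counts with IgG and 8, 24 and 22 counts with IGF2BP3. Its log2 fold change of 0.75 was the second highest of the members, with a standard error of 0.53 (adjusted p = 0.60, edgeR) and overlapping groups. It ranged from 0.45, without IgG IP replicate 1, to 1.37, without IgG IP replicate 2, so its place in the order is not settled.

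In the ISWI family 6 of 7 RNAs were tested, with 0 enriched and 0 lower, against 1.16% and 0% of all tested RNAs. At an unadjusted p under 0.05, 1 was higher, against 9.72% of all tested RNAs. The ATPase *SMARCA5*, which encodes SNF2H, had 337, 324 and 311 CPM with IgG and 301, 311 and 307 CPM with IGF2BP3, with a log2 fold change of -0.08 (SE 0.07). *BPTF*, the largest subunit of the NURF complex and a reader of methylated histone H3, had 33.4, 36.1 and 33.1 CPM with IgG and 38.1, 48.6 and 46.0 CPM with IGF2BP3. Its groups did not overlap, and the log2 fold change was 0.37 (SE 0.12, adjusted p = 0.21, edgeR; 0.0026 with the block). *BAZ2A*, which encodes the NoRC subunit TIP5, had 23.5, 48.9 and 50.2 CPM with IgG and 36.9, 66.8 and 57.4 CPM with IGF2BP3. Replicate 1 was low in both groups, so the groups overlapped (log2 fold change 0.39, SE 0.29, adjusted p = 0.62, edgeR), whereas each same-numbered pair was higher in the IGF2BP3 IP and the adjusted p was 0.0012 with the block. With each library left out, the *BAZ2A* value ranged from 0.12, without IgG IP replicate 1, to 0.59, without IGF2BP3 IP replicate 1. *BAZ1A*, *BAZ1B* and *BAZ2B*, bromodomain partners of the ISWI ATPases, were at -0.03, -0.01 and -0.05.

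*SRCAP*, which encodes the ATPase that loads H2A.Z, had 3.79, 3.75 and 3.63 CPM with IgG and 4.37, 4.53 and 4.80 CPM with IGF2BP3. Its groups did not overlap, with a log2 fold change of 0.29 (SE 0.18, adjusted p = 0.55, edgeR). *INO80* had 21.7, 22.7 and 24.5 CPM with IgG and 17.9, 23.0 and 24.0 CPM with IGF2BP3, with overlap and a log2 fold change of -0.09. Among the other SNF2 ATPases, *ATRX*, which deposits histone H3.3 with DAXX, had 72.0, 60.7 and 61.7 CPM with IgG and 58.3, 61.2 and 58.7 CPM with IGF2BP3 (log2 fold change -0.12). *HELLS*, which supports DNA methylation, had 191, 190 and 183 CPM with IgG and 199, 204 and 178 CPM with IGF2BP3 (log2 fold change 0.05). *SMARCAD1*, which acts in replication-coupled chromatin maintenance, had 218, 233 and 221 CPM with IgG and 190, 246 and 225 CPM with IGF2BP3 (log2 fold change -0.03). These 3 had intervals within a 1.5-fold change either way.

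On CPM the groups separated upward, all IGF2BP3 IP libraries above all IgG IP libraries, in 12 of the 42 members, against 12% of all tested RNAs, and below in 2, *PHF10* and *CHD4*, against 8.69%. On the deposited TPM, 4 of the 42 separated upward, against 9.64% of all tested RNAs. Within the same-numbered pairs, 20 members were higher in the IGF2BP3 IP in 3 of 3 pairs, against 25.1% of all tested RNAs, and 7 were lower in 3 of 3, against 23.5%. With the replicate block, 11 members had an adjusted p under 0.05 with a log2 fold change above 0 (edgeR), against 10.9% of all tested RNAs. These were *ARID1A*, *ARID1B*, *ARID2*, *SMARCA4*, *SMARCD1*, *DPF2*, *CHD6*, *CHD7*, *CHD9*, *BPTF* and *BAZ2A*, and all but *ARID1A* stayed under the 1.5-fold minimum in that fit. *PHF10* was the only member past the adjusted p in the lower direction in that fit, against 5.23% of all tested RNAs. The block takes up shifts that same-numbered libraries share, and the common dispersion of the fit was 0.0179 without it and 0.00306 with it.

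Of 19 pairs of paralogs or counterparts set for comparison, 17 had both RNAs tested. For each, the log2 ratio of CPM (with 0.5 added to each) of one RNA over the other was compared between the IPs by exact permutation of the library labels (two-sided), where 3 libraries against 3 allow no p below 0.10. In 5 pairs the ratio separated the groups, each at exact p = 0.10 (permutation test) and 0.34 after adjustment over the 17 pairs. With that floor no pair could have passed, so the test decides nothing about them. The share of other gene pairs that separate was not computed. The difference in log2 ratio, IGF2BP3 IP minus IgG IP, was 0.36 for *CHD6* over *CHD7* and 0.25 for *ARID1A* over *ARID1B*. On TPM the *CHD6* over *CHD7* difference had the opposite sign, at -0.26, with overlap. From the counts it was -0.24 for *ACTL6A* over *ACTL6B*, -0.35 for *SMARCA2* over *SMARCA4* and -0.35 for *INO80* over *SRCAP*. On TPM the groups overlapped for *ACTL6A* over *ACTL6B* and *SMARCA2* over *SMARCA4*, at -0.19 and -0.43. They stayed separate on TPM for *ARID1A* over *ARID1B* and *INO80* over *SRCAP*. For *SMARCA2* over *SMARCA4*, the mean log2 ratio was 0.37 ± 0.10 in the IgG IP and 0.02 ± 0.09 in the IGF2BP3 IP (SD, n = 3). For *ARID1A* over *ARID1B* the differences within pairs 1 to 3 were 0.01, 0.36 and 0.38, so pair 1 showed almost no difference. The other 12 pairs overlapped.

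Compared per length on the deposited TPM, the levels of the 44 RNAs in the IgG IP ran from 207 ± 49.3 TPM for *PHF10* to 0.137 ± 0.13 TPM for *SMARCA1* (SD, n = 3). *ACTL6A* followed at 148 ± 16.5 TPM and *SMARCE1* at 129 ± 5.96 TPM, and each of these steps in the order was little more than 1 SD of the higher RNA. Among the ATPases, *HELLS* was highest at 77.2 ± 12.9 TPM, then *SMARCAD1* at 53.8 ± 12.4 TPM, *CHD9* at 46.2 ± 6.14 TPM and *SMARCA5* at 44.3 ± 7.25 TPM, the last 3 within their spread. The BAF ATPases *SMARCA2* and *SMARCA4* were at 16.0 ± 0.737 and 13.7 ± 2.41 TPM, within their spread. The SD here is between libraries, which these RNAs share. Within each IgG IP library the orders named so far also held, some by small margins. In replicate 1, *SMARCAD1* was at 39.6 and *CHD9* at 39.2 TPM. Of the NuRD ATPases, *CHD4* was at 32.2 ± 11.4 TPM, *CHD3* at 10.5 ± 4.90 TPM and *CHD5* at 0.173 ± 0.135 TPM. The levels of *ARID1B* and *ARID1A* were 33.8 ± 10.3 and 9.50 ± 2.91 TPM in the IgG IP, and 52.2 ± 12.6 and 25.0 ± 7.58 TPM in the IGF2BP3 IP. Among the IgG IP libraries, replicate 1 was the lowest for 37 of the 44 RNAs. The share over all tested RNAs was not computed, so this is not read as a trait of the remodelers. The MCC markers *KRT20* and *ATOH1* were also lowest in that library, and *KRT10* was not.

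**Figure D3:**
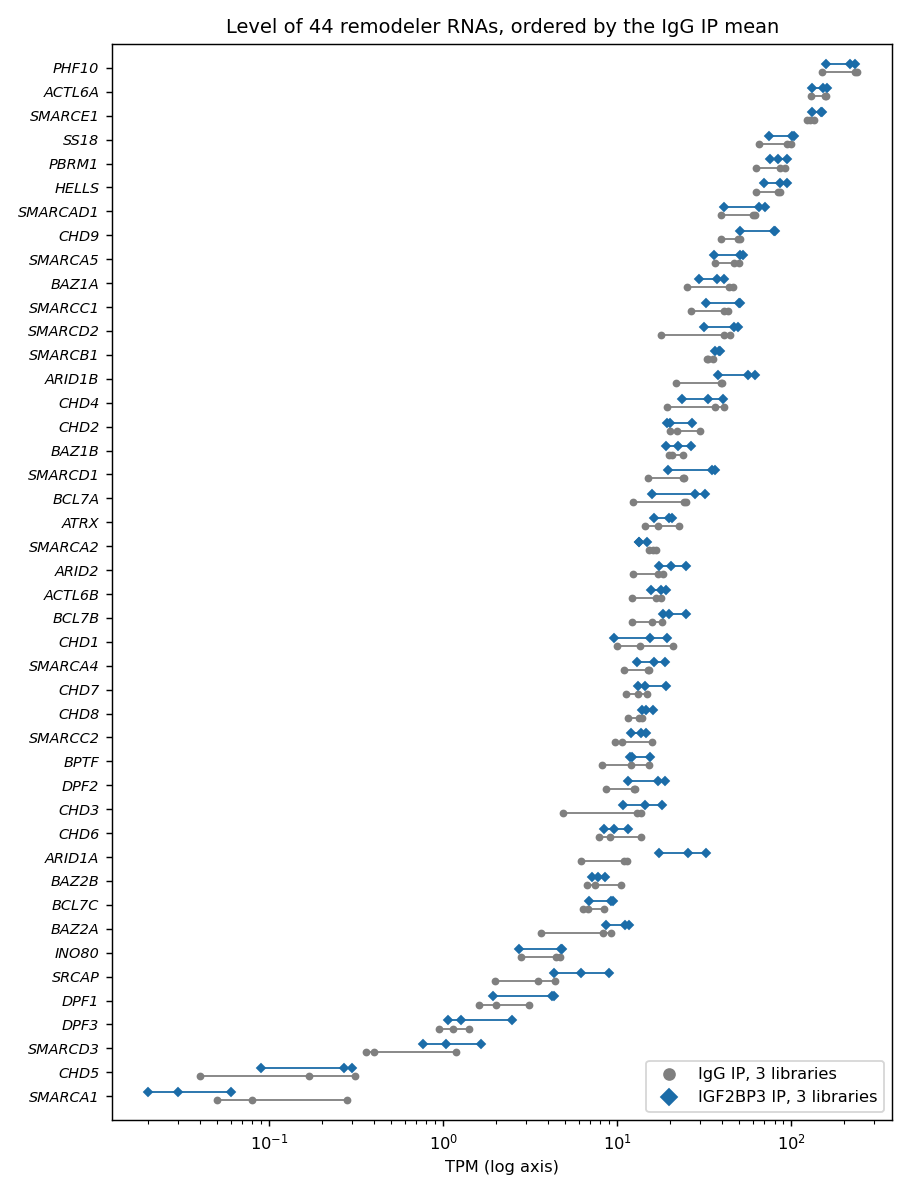
Deposited TPM (x axis, log scale) of the 44 remodeler RNAs in the 3 IgG IP (circles) and 3 IGF2BP3 IP (diamonds) libraries, with lines from the lowest to the highest library. *PHF10*, *ACTL6A* and *SMARCE1* lead the order, *CHD5* and *SMARCA1* close it, and the groups of *ARID1A* are separate.

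The counts and the TPM of a gene were not interchangeable. For each tested RNA the counts were divided by the product of FPKM and transcript length, as a share of the median over tested protein-coding genes. This count yield was 9.85% for *SMARCE1*, 10.1% for *CHD4* and 12.3% for *SRCAP*, and only 1.07%, 1.12% and 1.42% of genes had a lower value. For the other tested members it ran from 33.2% (*SMARCB1*) to 220% (*BCL7C*). Each of these 3 genes is overlapped on its own strand by an annotated read-through gene, over 21299, 37286 and 37343 bases respectively, which itself had 0 to 2 counts per library. *CHD5* is overlapped in the same way over 20892 bases and had a count yield of 97.1%. The part of the overlap in the low count yield was not tested. The CPM of *SMARCE1*, *CHD4* and *SRCAP* therefore cannot be read as levels beside other genes.

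For *SRCAP* the deposited TPM were 1.98, 3.50 and 4.41 with IgG and 4.35, 8.91 and 6.15 with IGF2BP3. The groups overlapped, and on log2(TPM + 0.1) the difference was 0.96 (SE 0.42, adjusted p = 0.86, limma-trend), against 0.29 from the counts. For *ARID1A* the TPM were 6.15, 10.9 and 11.4 with IgG and 17.2, 32.4 and 25.5 with IGF2BP3, with no overlap and a difference of 1.39 (SE 0.34, adjusted p = 0.67, limma-trend). The TPM of 4 members separated upward, against 9.64% of all tested RNAs. These were *ARID1A*, *CHD9*, *BCL7B* and *SMARCB1*. *SMARCA2* separated downward, at 16.7, 15.2 and 16.0 TPM with IgG and 13.3, 14.7 and 13.3 TPM with IGF2BP3. On CPM its groups overlapped, and the share of all tested RNAs that separated downward on TPM was not computed. On the TPM scale the median of all tested RNAs shifted by 0.13 between the IPs, so the size of a TPM difference has to be read against that shift.

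**Figure D4:**
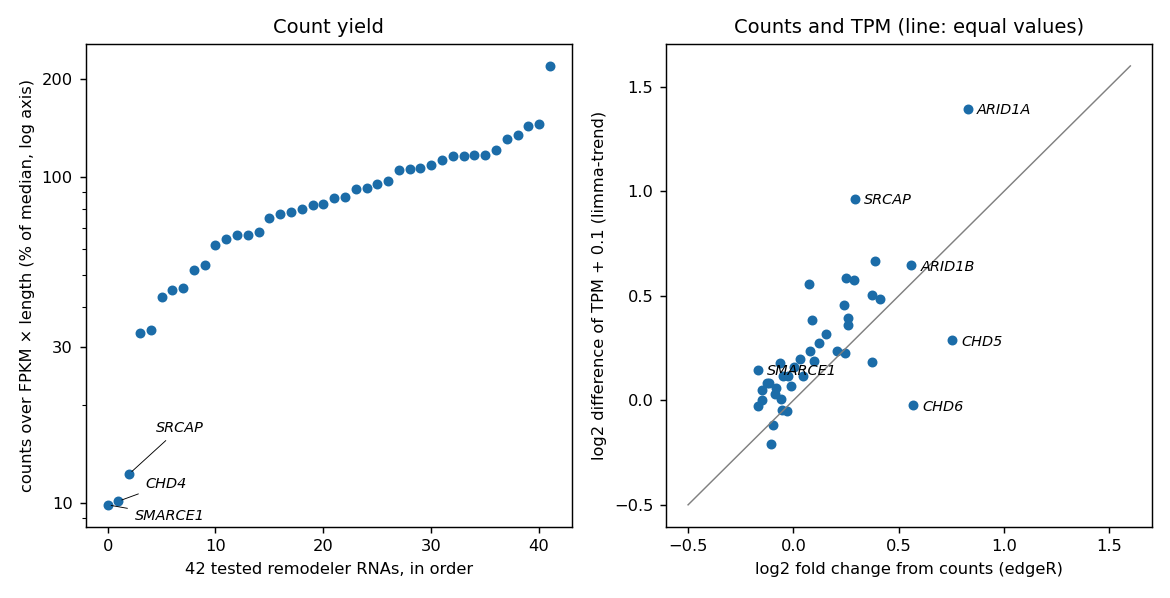
Left, count yield (counts over FPKM and transcript length, % of the median of tested protein-coding genes, log axis) of the 42 tested remodeler RNAs in rising order, with *SMARCE1*, *CHD4* and *SRCAP* at 9.85% to 12.3%. Right, log2 difference of TPM + 0.1 (y axis) against the log2 fold change from counts (x axis), where *SRCAP* and *ARID1A* lie above the line of equal values and *CHD6* lies below at -0.02.

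The 9 members that were higher at an unadjusted p under 0.05, a set picked on these values, had long transcripts. Their median length was 10310 bases, and 7 of 9 exceeded 8000 bases, against 9 of the other 33 tested members, whose median was 5748 bases. Over all tested RNAs the median length was 3018 bases, and 8.03% exceeded 8000 bases. The 1141 tested protein-coding RNAs of over 8000 bases had a median log2 fold change of 0.10, and 1.93% of them were enriched. Across the 42 tested members the log2 fold change correlated with log2 length at r = 0.25 (Spearman's rho 0.29) and with GC content at r = 0.40 (rho 0.40). Across 14479 tested RNAs these values were 0.20 (rho 0.20) and 0.36 (rho 0.41). These correlations are across genes, which share libraries and are not independent replicates. For the density of TGGAC, a pentamer that holds the GGAC letters, r was 0.25 across the members and 0.15 across all tested RNAs, and for ACACA, a CA-rich pentamer, -0.05 and 0.02, both counted on the transcript strand. A length correction gave a median log2 fold change of 0.03 for the 42 members in place of 0.08. It did not use these transcript lengths but an effective length, the counts over FPKM and library totals. That length also carries the departures of counts from FPKM, as in *SMARCE1*, *CHD4* and *SRCAP*.

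The remodelers' other partners gave no calls. Of 6 other BAF subunits, 13 partners of NuRD, 5 of ISWI, 27 subunits of INO80, SRCAP and TIP60-EP400 (26 tested) and 14 other SNF2-type ATPases and partners, 0 were enriched and 0 were lower (edgeR). Over all tested RNAs these shares were 1.16% and 0%. At an unadjusted p under 0.05 there were 1, 3, 0, 3 and 1 in these lists, in either direction, against 9.72% higher and 3.1% lower over all tested RNAs. The lists' median log2 fold changes were 0.07, 0.03, -0.03, -0.02 and -0.00. The highest values, named after they were seen, were those of *EP400*, the ATPase of the TIP60 complex, at 0.57 (adjusted p = 0.098, edgeR), *NFRKB*, an INO80 subunit, at 0.47 (adjusted p = 0.15, edgeR) and *INO80D* at 0.46 (adjusted p = 0.041, edgeR, under the 1.5-fold minimum). *BICRAL*, a subunit of the GBAF form of BAF, was at 0.39 (adjusted p = 0.094, edgeR).

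**Figure D5:**
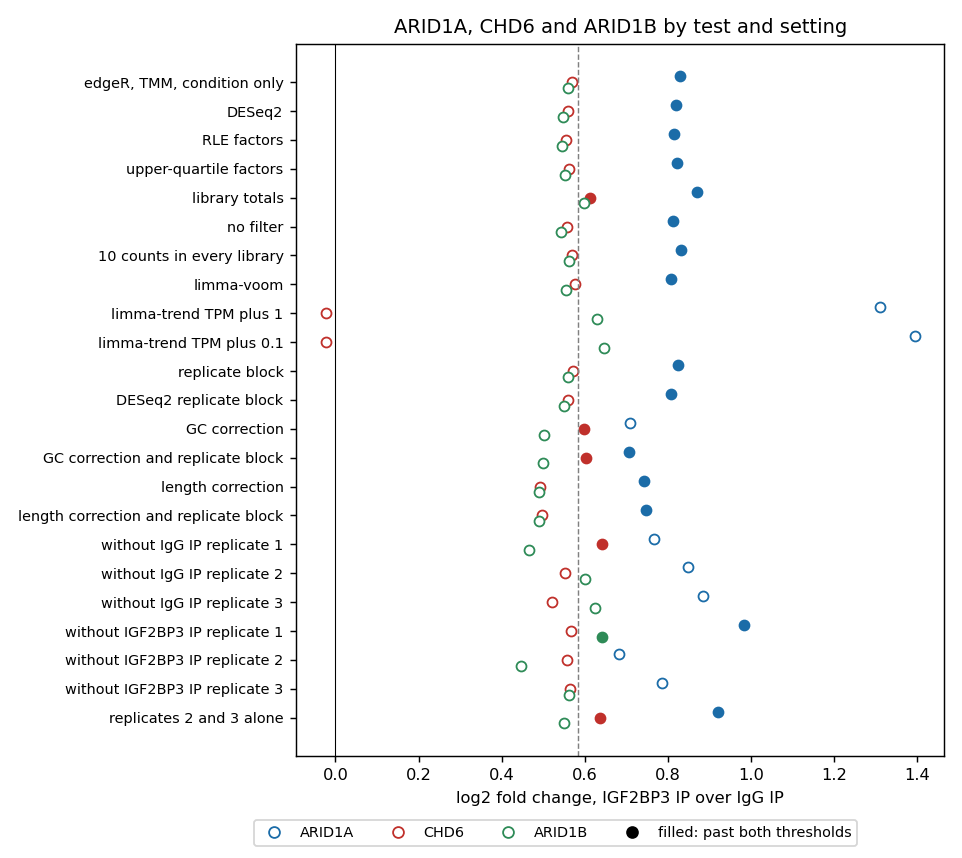
Log2 fold change (x axis) of *ARID1A*, *CHD6* and *ARID1B* under each test and setting (y axis), with filled points past both thresholds of that setting and a dashed line at a 1.5-fold change. The values of *ARID1A* from counts lie between 0.68 and 0.98, and those of *CHD6* lie near the line except on TPM, where they are at -0.02.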

How the data were processed

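The authors mapped paired-end reads of 150 bp to GRCh38 (STAR 2.7.9a) and ran RSEM on GENCODE version 37. The deposited table holds raw whole-number counts, and the deposited TPM and FPKM values came beside it. The program behind the counts and its use of strand are not given in the sources used here. Groups and replicate numbers came from the labels. Whether same-numbered IPs share a lysate is not stated. Model p-values set a difference against the spread between these libraries, or, with the block, against the spread left after the replicate term.

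In edgeR 4.0.16 (R 4.3.3), counts passed filterByExpr and TMM scaling, and a quasi-likelihood model with condition as its only term was fitted over all 14507 genes kept. Thresholds were a 1.5-fold change and a Benjamini-Hochberg adjusted p under 0.05. Standard errors were taken from the F statistic. CPM use TMM library sizes, and differences of TPM use log2(TPM + 0.1) with limma-trend (limma 3.58.1). Transcript lengths, motifs and exons came from canonical transcripts of GENCODE version 44, in which 60481 of 60655 identifiers were found. The length correction used instead an effective length, the counts of a gene over its FPKM and the library totals. DESeq2 1.42.0 and the other alternatives are listed with their effect in the closing section. Fitted functions were run on simulated counts that had no shift shared by same-numbered libraries, so the block was not tried on such shifts. In that run the length correction used transcript length and limma-trend used CPM, not the effective length and TPM used here.

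Same-numbered libraries deviated together from their group means (correlations across genes of 0.54, 0.26 and 0.22). Replicates 2 and 3 crossed gave 0.26 and 0.25, about as high as matched. These correlations set replicate 1 apart and do not show that 2 pairs with 2 or 3 with 3. The block took the numbers of the labels as pairs without that evidence.

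The members and all lists were chosen with earlier results of these data known. Per-library values were set to be given for members past the thresholds in the main, DESeq2 or block fit, the 5 highest and 5 lowest fold changes and the ATPases. *ARID2*, *SMARCD1*, *BPTF* and *BAZ2A* were added after their values were seen. The fit with replicates 2 and 3 alone was also chosen after seeing the data.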

Additional observations from a re-analysis of the deposited data

How the results depend on the processing

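The count of 1 enriched remodeler RNA became 2 with library totals as the only scaling, with the GC correction and block together, with no fold change minimum and with replicates 2 and 3 alone, became 0 with limma-trend on log2(TPM + 1) and on log2(TPM + 0.1), and ranged from 0 to 2 with each library left out. With the GC correction alone, and without IgG IP replicate 1, the 1 call was *CHD6* in place of *ARID1A*. No remodeler RNA was called lower under any alternative run. The count over all RNAs (169) was 281 with DESeq2, 359 without a filter, 0 on both TPM scales, 517 with the replicate block, 321 with DESeq2 and the block, 111 with the GC correction, 345 with GC and block, 476 with length and block, 466 with replicates 2 and 3 alone, and 0 to 244 with each library left out (0 without IGF2BP3 IP replicate 2, 23 without IGF2BP3 IP replicate 3, 7 and 19 without IgG IP replicates 3 and 2). The partner count of 0 became 1 with no fold change minimum (*INO80D*) and with replicates 2 and 3 alone (*EP400*), and was 0 to 1 with each library left out. The members' median of 0.08 was 0.12 with library totals, 0.17 and 0.19 on the TPM scales (where the median of all RNAs was 0.11 and 0.13), 0.031 and 0.032 with the length correction without and with the block, and 0.026 to 0.070 with each library left out. The 5 separate paralog pairs were 2 on TPM, 12 by sign within same-numbered libraries in place of a replicate block, 13 with replicates 2 and 3 alone and 5 to 12 with each library left out. One sign within pairs, and separation among fewer libraries, are easier to reach than separation of 3 libraries against 3. The higher counts under those settings therefore cannot be set against the 5. The replicate block changed no call of a single remodeler RNA in the uncorrected and length-corrected fits, and restored that of *ARID1A* in the GC-corrected fit. Loss of the *ARID1A* call on TPM came at 1.31 (adjusted p = 0.60, limma-trend) and 1.39. The cause of these changes was not tested. Counts of *CHD5*, *SMARCD3* and *SMARCA1* were 24 or fewer in every library, which limits what their values can show.

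Of 965 values of single RNAs under the alternatives, 859 kept direction and side of the threshold, 91 turned in sign, 7 gained and 8 lost the call, and *ARID1A* kept its direction in each. The 965 include the setting with no fold change minimum, which reuses the main fit. Its values could not turn in sign or lose the call. *SMARCB1* (0.00) was at -0.0090 by DESeq2, -0.019 by DESeq2 and block, -0.011 by RLE factors, -0.0030 by upper-quartile factors, -0.0044 by limma-voom, -0.010 without a filter and -0.010 by the replicate block in edgeR. Under the GC correction, *ACTL6B* was at -0.054, *ATRX* 0.034, *BAZ1A* 0.073, *BAZ1B* 0.0052, *BAZ2B* 0.060, *BCL7C* -0.109, *CHD1* 0.069, *CHD3* -0.0052, *SMARCA5* 0.053, *SMARCAD1* 0.124, *SMARCB1* -0.155, *SMARCD2* -0.041 and *SS18* 0.037, and with the block added these RNAs were at -0.053, 0.036, 0.074, 0.0077, 0.066, -0.111, 0.072, -0.00042, 0.053, 0.121, -0.163, -0.033 and 0.037. Under the length correction *CHD8* was at -0.067, or -0.062 once the block was added. Scaled by library totals, *BAZ1A* was at 0.011, *BAZ1B* 0.030 and *SMARCAD1* 0.016. On log2(TPM + 0.1), *ACTL6A* was at 0.0019, *ATRX* 0.083, *BAZ1B* 0.071, *CHD1* 0.0063, *CHD4* 0.048, *CHD6* -0.024, *INO80* 0.029, *PBRM1* 0.081, *SMARCA5* 0.061, *SMARCAD1* 0.116, *SMARCC2* 0.177, *SMARCE1* 0.146 and *SS18* 0.119, and on log2(TPM + 1) they were at 0.0019, 0.079, 0.068, 0.0058, 0.045, -0.023, 0.026, 0.080, 0.060, 0.114, 0.164, 0.145 and 0.117. With replicates 2 and 3 alone, *BAZ1B* was at 0.052, *SMARCAD1* 0.053 and *SMARCB1* -0.054. With each library left out, the values that turned ranged from -0.065 to 0.0048 for *BAZ1A*, -0.071 to 0.029 for *BAZ1B*, -0.173 to 0.022 for *BAZ2B*, -0.083 to 0.288 for *BCL7C*, -0.186 to 0.048 for *CHD1*, -0.098 to 0.253 for *CHD3*, -0.031 to 0.069 for *CHD8*, -0.183 to 0.031 for *INO80*, -0.117 to 0.069 for *SMARCAD1*, -0.117 to 0.096 for *SMARCB1*, -0.147 to 0.019 for *SMARCC2* and -0.063 to 0.208 for *SMARCD2*.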
